A study of Mus musculus with 6 samples.

Results

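The genes described are 10 ligands and receptors of vessel growth: the ligands Vegfa, Vegfb, Vegfc, Pgf, Pdgfa, Pdgfb and Angptl4, and the receptors Pdgfra, Nrp1 and Nrp2. They were chosen by name, with earlier results of these data known. All 10 were found among the 56448 genes of the deposited TPM table (a level scaled for transcript length, so that genes can be set side by side). The libraries came from 4T1, a mouse mammary carcinoma line grown in culture in medium with fetal bovine serum. The labels name 3 libraries in9 and 3 libraries LV2. According to the series' design text, the study made a stable knockdown of the microRNA miR-9 with lentivirus and set it against a control group. The labels spell out neither name, and differences are in9 minus LV2 throughout. The construct, and whether each line is a clone, are not described in the labels. Nothing states that replicates were separate cultures, so p-values measure the spread between these libraries, which may be technical. The table holds no depth, and it does not measure mature miR-9, so the knockdown itself could not be checked.

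Vascular endothelial growth factors (VEGFs) are secreted dimers that act on receptor tyrosine kinases, mainly on endothelial cells: VEGF-A acts through VEGFR-1 and VEGFR-2, VEGF-B and placental growth factor through VEGFR-1, and VEGF-C through VEGFR-3 and VEGFR-2. Platelet-derived growth factors (PDGFs) belong to the same superfamily and act on PDGF receptors of fibroblasts, pericytes and other mesenchymal cells. Neuropilins bind VEGFs as co-receptors and class 3 semaphorins together with plexins. Tumour cells are a known source of these ligands, and oxygen shortage is a known inducer of Vegfa and Angptl4. In the authors' deposited annotation 9 genes carried the PDGF/VEGF domain, and 6 of them were among the 10 described.

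The microRNA that the study set out to reduce is shown here because it pairs with messenger RNA through its seed, bases 2 to 8, which are in capitals. The sequence is RefSeq's mature strand for GRCm38.p6 and is encoded by Mir9-1 on chromosome 3, Mir9-2 on chromosome 13 and Mir9-3 on chromosome 7.

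mmu-miR-9-5p: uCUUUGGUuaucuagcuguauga

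For each gene, GENCODE M21's longest 3' UTR was searched for ACCAAAG, the match to bases 2 to 8, and for CCAAAGA, the match to bases 2 to 7 followed by A, on the transcribed strand only. The joined 8-base match ACCAAAGA was counted once. Of the 10 genes, 1 had a match, the co-receptor gene Nrp2, against 25.0% of the 10994 tested genes with an annotated 3' UTR. It lay on the plus strand at chr1:62799134-62799141 in mm10, at bases 3145 to 3152 of a 3' UTR of 3325 bases. The match is printed in capitals in its 30-base surroundings, read from the GENCODE transcript.

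Nrp2 3' UTR: ggtcaaaatctACCAAAGAacaacaaaaca

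No match was found in the other 3' UTRs, which ran from 417 bases in Vegfb to 3115 bases in Pdgfra. A match is a run of letters and not a measured site of binding, and the table gives levels per gene, so the share of Nrp2 transcripts that include this stretch is unknown.

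The libraries carried the marks of a carcinoma line with little RNA of vessel, stromal or immune cells. The 7 epithelial markers summed to 2245.5 to 2301 TPM in in9 and 2346 to 2399.8 TPM in LV2. Of 11 endothelial markers 8 had a mean under 1 TPM, and Emcn, Cldn5 and Erg were listed at 0 in all 6 libraries. Egfl7 alone made up most of the endothelial sum, which was 28.3 to 31.5 TPM in in9 and 23.5 to 29.0 TPM in LV2. All 9 fibroblast and pericyte markers were under 1 TPM on average, and they summed to 0.49 to 0.55 TPM in in9 and 0.50 to 0.96 TPM in LV2. Of 7 leukocyte markers 5 were under 1 TPM and Adgre1 was listed at 0 throughout, and the sum, 50.6 to 57.2 TPM in in9 and 45.7 to 50.3 TPM in LV2, lay almost wholly in Cd68 and Cd14. In bulk RNA, fewer cells of a type and less RNA per cell cannot be told apart. In9 replicate 1 stood apart from its group on the first principal component of all tested genes, at -2.70 against 26.1 and 27.8 for in9 replicates 2 and 3, with LV2 replicates 1, 2 and 3 at -6.98, -22.0 and -22.2. The part of these markers and of this library's position in the results was not tested, beyond the values given without in9 replicate 1.

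All 10 genes were expressed in every library, and none passed the test between in9 and LV2. The test was limma on log2(TPM + 1) over the 13406 genes that averaged 1 TPM or more, and a gene was called at a Benjamini-Hochberg adjusted p under 0.05. With it 0.821% of the genes tested were called higher in in9 and 0.194% were called lower. At an unadjusted p under 0.05, 4 of the 10 genes were higher in in9 (Vegfb, Pgf, Pdgfa and Pdgfra) and 1 was lower (Vegfc), against 13.6% higher and 5.86% lower among all tested genes. For these same 5 genes the ranges of the groups did not overlap, which held for 17.4% of all tested genes in the higher direction and 8.08% in the lower. The median log2 fold change of the 10 genes was 0.12, against 0.06 over all tested genes, and 0.05 against 0.00 after trimmed-mean scaling between libraries.

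**Figure D1:**
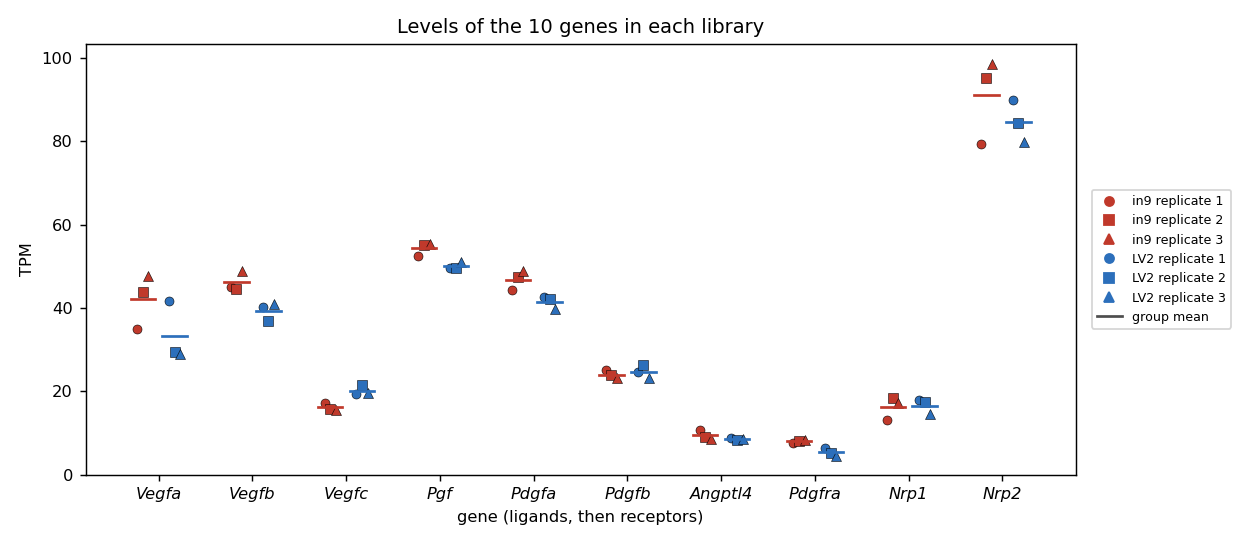
TPM (vertical axis, from 0) of the 10 genes in each library, in9 in red left of LV2 in blue, with a symbol per replicate and a line at each group mean. Nrp2 is the most abundant at 79.45 to 98.64 TPM in in9 and 79.82 to 89.82 TPM in LV2, and Vegfc is the gene whose in9 points all lie below its LV2 points.

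The order of the levels was nearly the same in both groups. In in9 it ran Nrp2, Pgf, Pdgfa, Vegfb, Vegfa, Pdgfb, Nrp1, Vegfc, Angptl4 and Pdgfra, from 91.1 TPM to 8.05 TPM on average. In LV2 the means ran from 84.7 TPM for Nrp2 to 5.45 TPM for Pdgfra, and the order was the same but for Vegfc, at 20.2 TPM, which stood above Nrp1, at 16.6 TPM. The libraries of Pdgfa and Vegfb, and of Vegfb and Vegfa, overlapped within each group, so those neighbours were not separated by their spread. Nrp1 and Vegfc overlapped in in9 and not in LV2.

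Vegfa (ENSMUSG00000023951, chromosome 17, positions 46016993 to 46032369 in mm10) encodes the principal inducer of vessel sprouting. It was at 35.08, 43.76 and 47.58 TPM in in9 replicates 1, 2 and 3, against 41.69, 29.34 and 28.97 TPM in LV2 replicates 1, 2 and 3. The groups overlapped, because LV2 replicate 1 lay above in9 replicate 1. The mean was 42.1 ± 6.41 TPM in in9 and 33.3 ± 7.24 TPM in LV2 (SD, n = 3 each), the widest spread relative to the mean among the ligands in LV2. The log2 fold change of 0.34 ± 0.17 (SE) was not called in limma (adjusted p = 0.330), and the 95% interval of the fold, on the TPM + 1 scale, reached from 0.953 to 1.68. Leaving out LV2 replicate 1 gave 0.51 and leaving out in9 replicate 1 gave 0.46, while leaving out any other library gave 0.25 to 0.31.

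The tested protein-coding genes outside the 10 whose profile was closest to that of Vegfa were Pdik1l, Tmem94 and Cdk14. Closeness was the root mean square difference of the deviations of log2(TPM + 1) from each gene's own mean over the 6 libraries, searched in 11043 genes, and it was 0.0482, 0.0628 and 0.0644. Pdik1l was at 7.18, 9.10 and 9.70 TPM in in9 and 8.80, 5.85 and 5.22 TPM in LV2. That it was high in LV2 replicate 1 and low in in9 replicate 1 follows from its being picked for likeness to Vegfa. None of these 3 genes was called in limma (adjusted p = 0.362, 0.408 and 0.373). This too follows largely from the choice and is no separate evidence about Vegfa.

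Vegfb (ENSMUSG00000024962, chromosome 19, positions 6982473 to 6987651) encodes a ligand of VEGFR-1 linked to fatty acid uptake in heart and muscle. It was at 45.09, 44.48 and 48.89 TPM in in9 and 40.25, 36.91 and 40.92 TPM in LV2. Each in9 library was above each LV2 library. In limma the log2 fold change of 0.22 ± 0.06 (SE) was not called (adjusted p = 0.143), and the 95% interval of the fold ran from 1.05 to 1.30.

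Pgf (ENSMUSG00000004791, chromosome 12, positions 85166635 to 85177790) encodes placental growth factor and was the most abundant ligand of the 10. Its levels were 52.38, 55.19 and 55.38 TPM in in9 and 49.58, 49.66 and 51.02 TPM in LV2. The groups did not overlap, although the means, 54.3 ± 1.68 TPM in in9 and 50.1 ± 0.809 TPM in LV2 (SD, n = 3 each), were close. The log2 fold change of 0.11 ± 0.05 (SE) had an adjusted p of 0.253 in limma and became 0.05 after trimmed-mean scaling.

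Vegfc (ENSMUSG00000031520, chromosome 8, positions 54077606 to 54187096) encodes the main inducer of lymphatic vessel growth. In in9 it was at 17.21, 15.80 and 15.43 TPM, against 19.28, 21.48 and 19.72 TPM in LV2. All in9 libraries were below all LV2 libraries, with means of 16.1 ± 0.939 TPM in in9 and 20.2 ± 1.16 TPM in LV2 (SD, n = 3 each). The log2 fold change was -0.30 ± 0.07 (SE), with a 95% interval of the fold from 0.716 to 0.917, and it was not called (limma adjusted p = 0.110). It was the 1 gene of the 10 that any alternative called: without in9 replicate 1 its log2 fold change was -0.35 with an adjusted p of 0.0417. In that fit 7.25% of the genes tested were called higher and 3.8% lower. When any other library was left out, the adjusted p of Vegfc lay between 0.190 and 0.329.

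As shares of the VEGF-family ligand transcripts, Vegfc and the scarce Vegfd differed between the groups without overlap and the other ligands overlapped. Vegfa, Vegfb, Vegfc, Pgf and Vegfd, the gene of the other lymphatic growth factor, summed to 151 to 169 TPM in in9 and 138 to 152 TPM in LV2. Pgf held 32.7% to 34.6% of that sum in in9 and 32.6% to 36.2% in LV2. Vegfb held 27.7% to 29.8% in in9 and 26.5% to 29.0% in LV2, and Vegfa 23.2% to 28.1% in in9 and 20.5% to 27.4% in LV2. Vegfc held 9.11% to 11.4% in in9 and 12.7% to 15.6% in LV2, and Vegfd 0.896% to 1.26% in in9 and 0.277% to 0.711% in LV2. These shares were not tested. Vegfd was at 1.70, 1.44 and 2.14 TPM in in9 and 1.08, 0.69 and 0.39 TPM in LV2, and its log2 fold change of 0.69 ± 0.22 (SE) was not called (adjusted p = 0.173 in limma). The lymphatic ligands Vegfc and Vegfd thus had log2 fold changes of opposite sign, and neither was called.

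**Figure D2:**
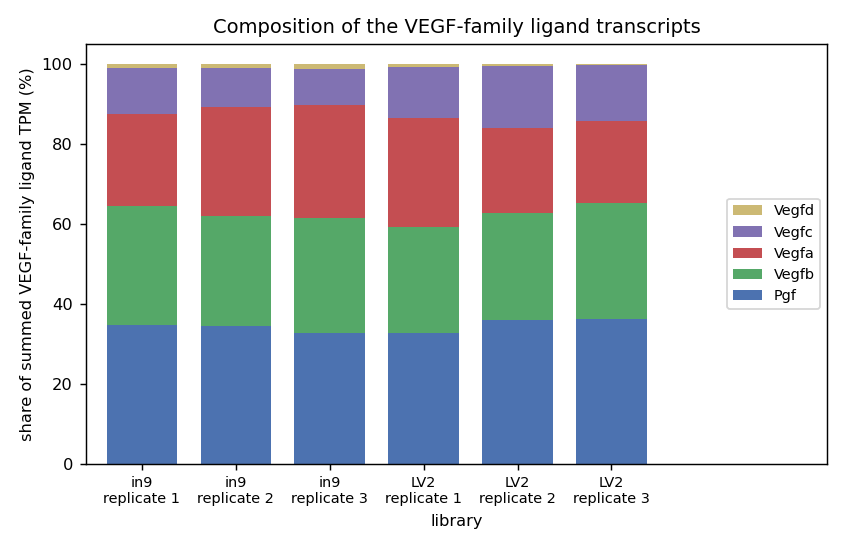
Share of the summed VEGF-family ligand TPM (vertical axis, %) held by Pgf, Vegfb, Vegfa, Vegfc and Vegfd in each library, in9 bars left of LV2 bars. The Vegfc band takes 9.11% to 11.4% in in9 and 12.7% to 15.6% in LV2, while the bands of Pgf, Vegfb and Vegfa overlap between the groups.

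Pdgfa (ENSMUSG00000025856, chromosome 5, positions 138976014 to 138997370) encodes the PDGF-A chain, which acts on PDGFR-alpha. Levels were 44.21, 47.41 and 48.84 TPM in in9 and 42.58, 42.09 and 39.69 TPM in LV2, without overlap. The log2 fold change of 0.17 ± 0.06 (SE) was not called (adjusted p = 0.193 in limma), and it was 0.11 with trimmed-mean scaling. From gene start to gene end, introns included, Pdgfa shares 2315 bases with an antisense gene, 6330403L08Rik. The counting is not stated to use strand and overlap of exons was not computed, so whether reads of the pair are mixed is unknown. The antisense gene was at 1.81 to 2.22 TPM in in9 and 1.57 to 1.91 TPM in LV2.

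Pdgfb (ENSMUSG00000000489, chromosome 15, positions 79995874 to 80014977) encodes the PDGF-B chain, which recruits pericytes to vessels through PDGFR-beta. It was at 25.05, 23.94 and 23.10 TPM in in9 and 24.63, 26.29 and 23.27 TPM in LV2. The groups overlapped almost fully, and the 95% interval of the fold was 0.869 to 1.09 (log2 fold change -0.04, adjusted p = 0.781 in limma). With trimmed-mean scaling the log2 fold change was -0.10. Per transcript length Pdgfa was above Pdgfb by 1.76 to 2.11 times in in9 and 1.60 to 1.73 times in LV2.

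Pdgfra (ENSMUSG00000029231, chromosome 5, positions 75152292 to 75198215) encodes PDGFR-alpha, the receptor that binds both chains. It was the least abundant of the 10, at 7.71, 8.12 and 8.31 TPM in in9 and 6.52, 5.27 and 4.56 TPM in LV2. All in9 libraries lay above all LV2 libraries. Its log2 fold change, 0.50 ± 0.13 (SE), was the largest in size among the 10, the 95% interval of the fold was 1.14 to 1.75, and the adjusted p in limma was 0.121. Across the alternatives the log2 fold change ranged from 0.38 to 0.62 and the adjusted p from 0.0801 to 0.326. The receptor for PDGF-B, Pdgfrb, was listed at 0 in all in9 libraries and at 0, 0.01 and 0 TPM in LV2. All 9 fibroblast and pericyte markers together, Pdgfrb included, came to at most 0.96 TPM in any library, below the Pdgfra level in each. Pdgfra, itself a receptor of such cells, was not on that list, and the source of its RNA was not tested. Among the other PDGF ligand genes, Pdgfc averaged 0.313 TPM in in9 and 0.0967 TPM in LV2, and Pdgfd was listed at 0 in every library.

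Angptl4 (ENSMUSG00000002289, chromosome 17, positions 33773750 to 33781830) encodes a secreted inhibitor of lipoprotein lipase that also acts on vessel permeability. It was at 10.78, 9.03 and 8.50 TPM in in9 and 8.88, 8.29 and 8.59 TPM in LV2. Only in9 replicate 1 stood above the LV2 range by more than 1 TPM, and in9 replicate 3 was within that range. Its log2 fold change was 0.12 ± 0.10 (SE, adjusted p = 0.563 in limma) and 0.03 without in9 replicate 1, and with trimmed-mean scaling it was 0.06. The 95% interval of the fold ran from 0.913 to 1.29. The 3 genes closest in profile by the same measure were Ttll3, Ube2r2 and Aldh7a1, at 0.0251, 0.0296 and 0.0301, and Ube2r2 was at 72.75, 57.75 and 55.63 TPM in in9 and 58.70, 55.67 and 57.24 TPM in LV2. Its relative Angptl2, another secreted protein of the family, was far more abundant, at 57.20, 61.07 and 60.15 TPM in in9 and 52.45, 54.80 and 52.36 TPM in LV2, and was not called (log2 fold change 0.16, adjusted p = 0.163 in limma).

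Nrp1 (ENSMUSG00000025810, chromosome 8, positions 128358604 to 128503363) encodes neuropilin-1, a co-receptor of VEGF-A and of semaphorin 3A. It was at 13.17, 18.32 and 17.17 TPM in in9 and 17.84, 17.42 and 14.47 TPM in LV2. The lowest value was in in9 replicate 1 and the highest in in9 replicate 2, so the in9 libraries enclosed the LV2 range. The fitted log2 fold change was -0.04 ± 0.14 (SE, adjusted p = 0.905 in limma), with a 95% interval of the fold from 0.773 to 1.23. Its sign was not stable: it was 0.10 without in9 replicate 1, 0.02 without LV2 replicate 1 and -0.10 with trimmed-mean scaling.

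Nrp2 (ENSMUSG00000025969, chromosome 1, positions 62703285 to 62818695) encodes neuropilin-2, a co-receptor of VEGF-C and of semaphorin 3F, and is the gene with the miR-9 seed match printed above. In in9 it was at 79.45, 95.23 and 98.64 TPM, against 89.82, 84.44 and 79.82 TPM in LV2. In9 replicates 2 and 3 were above the LV2 range and in9 replicate 1 was just below it. The log2 fold change of 0.10 ± 0.09 (SE) was not called in limma (adjusted p = 0.579), with a 95% interval of the fold from 0.920 to 1.25. Without in9 replicate 1 the log2 fold change was 0.19 and the adjusted p 0.0935, and with trimmed-mean scaling they were 0.03 and 0.823. Nrp2 exceeded Nrp1 by 5.20 to 6.03 times in in9 and by 4.85 to 5.52 times in LV2 per transcript length, so Nrp2 was the main neuropilin transcript in both groups. From gene start to gene end, introns included, Nrp2 shares 2556 bases with Gm37121, an unverified gene on the same strand. Gm37121 was at 0.55 to 0.78 TPM in in9 and 0.31 to 1.02 TPM in LV2. Overlap of exons was not computed, so whether reads of the pair are mixed is unknown.

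**Figure D3:**
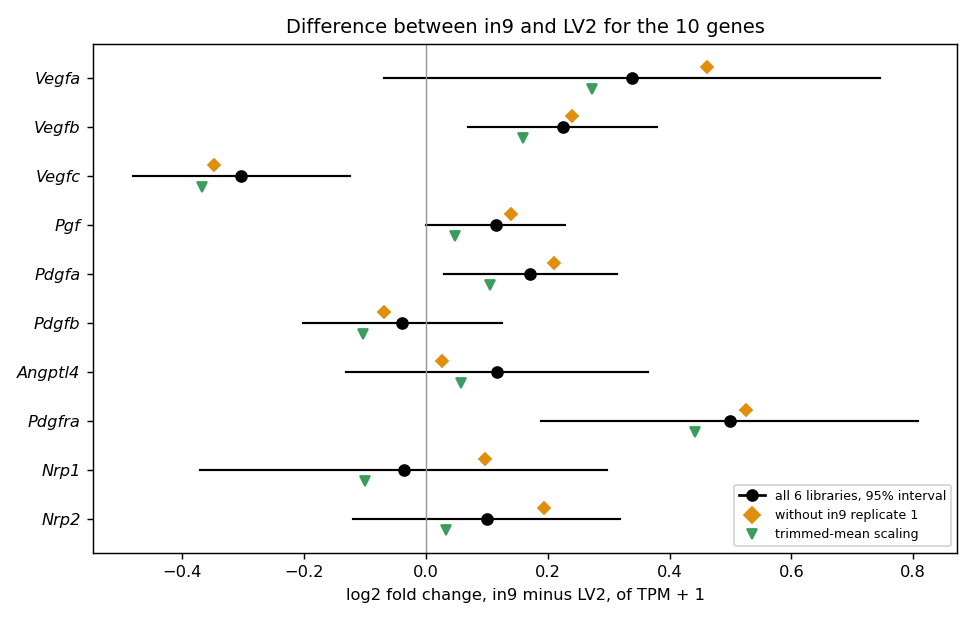
Log2 fold change of TPM + 1, in9 minus LV2 (horizontal axis), of the 10 genes, with black points and 95% intervals from all 6 libraries, orange diamonds without in9 replicate 1 and green triangles after trimmed-mean scaling. Pdgfra (0.50) and Vegfa (0.34) lie farthest to the right and Vegfc (-0.30) farthest to the left, and none was called with all libraries.

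The receptors through which the ligands signal were unevenly present. Flt1, the gene of VEGFR-1, was at 6.28, 8.06 and 8.54 TPM in in9 and 7.54, 7.21 and 5.63 TPM in LV2, with overlapping groups (log2 fold change 0.15 ± 0.15 SE, adjusted p = 0.622 in limma). Kdr, the gene of VEGFR-2, was between 0.01 and 0.06 TPM in in9 and between 0.02 and 0.09 TPM in LV2. Flt4, the gene of VEGFR-3, was listed at 0 in every library but LV2 replicate 3, where it was at 0.01 TPM. The VEGF receptor tyrosine kinase transcript of these cells was thus that of VEGFR-1, whose ligands Vegfa, Vegfb and Pgf were also the most abundant VEGF-family ligands. The level per gene does not tell the membrane form of VEGFR-1 from its soluble form.

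**Figure D4:**
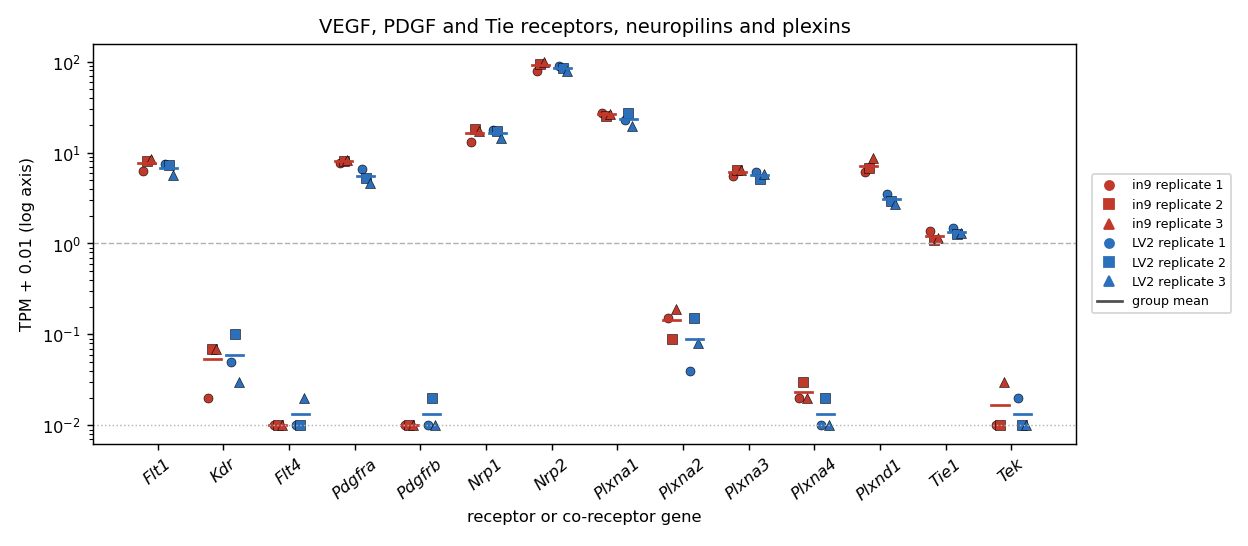
TPM + 0.01 on a log axis (vertical) of VEGF, PDGF and Tie receptor genes, neuropilins and plexins, in9 in red left of LV2 in blue, with a symbol per replicate, a line at each group mean, a dotted line at a TPM of 0 and a dashed line at a TPM of 1. Nrp2 is highest, Kdr, Flt4, Pdgfrb, Plxna2, Plxna4 and Tek lie below a TPM of 1, and Plxnd1 is the 1 called gene among them.

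In the lists of related pathway genes 1 of 71 tested genes was called, beside 0.821% called higher and 0.194% called lower over all tested genes. It was Plxnd1, the gene of plexin-D1, the receptor of semaphorin 3E that restrains vessel sprouting in mouse embryos. It was at 6.04, 6.77 and 8.65 TPM in in9 and 3.50, 2.96 and 2.70 TPM in LV2. The in9 mean was 7.15 ± 1.35 TPM and the LV2 mean 3.05 ± 0.408 TPM (SD, n = 3 each), and the log2 fold change was 1.00 ± 0.15 (SE, adjusted p = 0.0473 in limma). The call was lost in 9 of 14 alternatives, where the adjusted p was 0.0512 to 0.234. It was 0.111 with no filter, 0.0512 with a mean of at least 5 TPM, 0.0697 with no intensity trend and 0.234 with the replicate block. Leaving out any single library but in9 replicate 1 gave 0.113 to 0.205. The neuropilin genes Nrp1 and Nrp2, described above, had overlapping groups.

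Of the 12 class 3 semaphorin and plexin genes, 6 were tested and Plxnd1 was called. Plxnd1 and Sema3f were higher at an unadjusted p under 0.05 in limma, beside 13.6% higher over all tested genes. Sema3f, whose protein binds neuropilin-2, was at 39.51, 41.53 and 36.26 TPM in in9 and 32.92, 34.76 and 31.28 TPM in LV2 (log2 fold change 0.24, adjusted p = 0.152). Sema3e, the ligand of plexin-D1, was at 15.24, 18.47 and 18.44 TPM in in9 and 15.80, 15.10 and 14.59 TPM in LV2 (adjusted p = 0.334). Sema3a, a ligand of neuropilin-1, did not reach 0.1 TPM in any library.

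Beyond Plxnd1, no gene of the other lists was called higher and none lower in limma. The lists were drawn up with earlier results of these data known, which limits any comparison with all tested genes. Over all 102 pathway genes 71 were tested, and their median log2 fold change was 0.15 against 0.06 over all tested genes. Counting every unadjusted p under 0.05, 22 were higher and 4 lower (Ccn1, Hras, Nras and Rac1), beside 13.6% higher and 5.86% lower over all tested genes. Without in9 replicate 1, 14 of the pathway genes were called higher and 3 lower, beside 7.25% and 3.8% over all tested genes in that fit. The 14 were Plxnd1, Hif1a, Egln1, Egln3, Thbs1, Cxcl10, Apln, Akt2, Map2k1, Mapk3, Pik3r2, Pla2g4a, Plcg1 and Pxn, and the 3 were Ccn1, Hras and Nras. Of the 7 tested genes listed as regulators of hypoxia-inducible factors, all lay above 0 with all libraries and unscaled TPM, as did 8543 of all 13406 tested genes. The median log2 fold change of the 7 was 0.20. That list mixes subunits of these factors with oxygen sensors that act on them. A shared sign therefore has no single reading for the activity of the factors, which was not measured. With trimmed-mean scaling, as with quantile normalization, 6 of the 7 lay above 0. Of all tested genes, 6659 lay above 0 with trimmed-mean scaling. Hif1a, the oxygen-regulated subunit, was at 86.50, 112.24 and 111.43 TPM in in9 and 87.84, 85.33 and 83.41 TPM in LV2 (adjusted p = 0.239), so only in9 replicates 2 and 3 stood above the LV2 range. Vegfa was at its highest in in9 replicates 2 and 3, and it was at 41.69 TPM in LV2 replicate 1, where Hif1a was at 87.84 TPM. Angptl4 was at its highest in in9 replicate 1, where Hif1a was at 86.50 TPM. These are levels of RNA and not of protein, and any link of Hif1a to Vegfa or Angptl4 was not tested. The oxygen sensor genes Egln3 and Egln1 had log2 fold changes of 0.22 (adjusted p = 0.148) and 0.20 (adjusted p = 0.173), and the third gene of that family, Egln2, had 0.0019 (adjusted p = 0.993).

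Among angiopoietins, Angpt2, the context-dependent ligand of the receptor Tie2, was at 3.14, 3.92 and 4.40 TPM in in9 and 1.37, 2.44 and 2.52 TPM in LV2 (log2 fold change 0.65 ± 0.20 SE, adjusted p = 0.166 in limma). Tek, the gene of Tie2, did not exceed 0.02 TPM. Of the other vessel-promoting factors, the matricellular gene Ccn1 was at 611.74 to 663.63 TPM in in9 and 716.37 to 773.04 TPM in LV2, without overlap (log2 fold change -0.22, adjusted p = 0.0974), and the peptide gene Apln had a log2 fold change of 0.17 (adjusted p = 0.205). The list drawn up as inhibitors of vessel growth also held Vash2, which is not established as an inhibitor. Its 4 tested genes all had log2 fold changes above 0, also after trimmed-mean scaling and quantile normalization. Of all 13406 tested genes, 8543 lay above 0 with unscaled TPM, 6659 with trimmed-mean scaling and 6591 with quantile normalization. The chemokine gene Cxcl10 was the nearest to the threshold at 30.74, 26.15 and 28.27 TPM in in9 and 20.16, 16.63 and 20.61 TPM in LV2 (log2 fold change 0.55, adjusted p = 0.0659), and the log2 fold changes of Vash2, Thbs1 and Col18a1 were 0.38, 0.29 and 0.17. With all libraries Thbs1 was not called and its groups overlapped, because in9 replicate 1 lay below the LV2 range. Without in9 replicate 1 the log2 fold change of Thbs1 was 0.45 and it was called (adjusted p = 0.0121). In that fit 7.25% of the genes tested were called higher and 3.8% lower, and no other alternative called Thbs1.

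Downstream of the receptors, 41 of 42 signal transduction genes were tested and none was called, with a median log2 fold change of 0.04, which became -0.03 after trimmed-mean scaling. The unadjusted p was under 0.05 for 10 higher and 3 lower of the 41 genes, beside the 13.6% higher and 5.86% lower of all tested genes, so the lower count was near the background. The 3 lower genes were Hras, Nras and Rac1. Hras was at 87.02, 81.15 and 84.14 TPM in in9 and 101.64, 99.54 and 98.91 TPM in LV2 (log2 fold change -0.25, adjusted p = 0.0626). Nras was at 98.22, 105.19 and 109.47 TPM in in9 and 137.98, 124.44 and 131.03 TPM in LV2 (log2 fold change -0.33, adjusted p = 0.0639), and it was called after trimmed-mean scaling (adjusted p = 0.0361). The kinase subunit gene Pik3r2 had a log2 fold change of 0.37 (adjusted p = 0.0692).

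**Figure D5:**
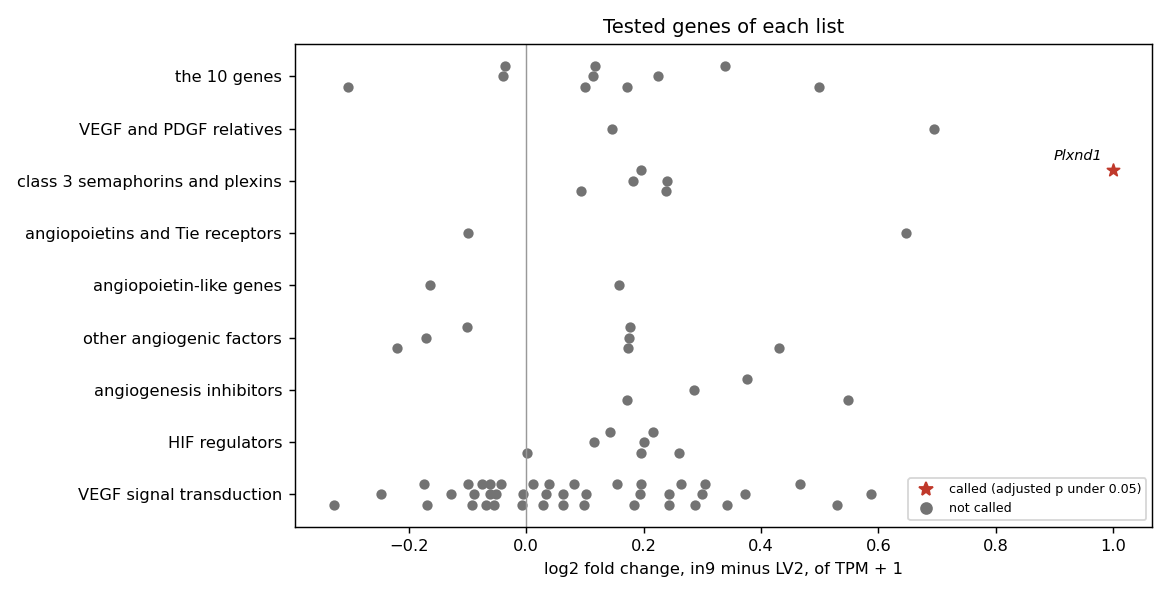
Difference of each tested gene as the log2 fold change of TPM + 1, in9 minus LV2 (horizontal axis), with the 10 genes in the top row and a row for each pathway list, grey for genes not called and a red star for the called gene. Plxnd1, at 1.00, is the 1 called gene. All 7 tested genes in the row of regulators of hypoxia-inducible factors, which mixes subunits and oxygen sensors, lie above 0 with unscaled TPM, against 6 after trimmed-mean scaling.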

How the data were processed

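Messenger RNA libraries of 4T1 cells, 3 labelled in9 and 3 labelled LV2, were analysed. The 1 deposited table held TPM with 2 decimals and, per the file headers, a mean column per group and a gene length. The genome build was mm10, per the submitters' processing notes. No label or header names the aligner, the quantifier or the annotation. TPM keep no depth, so library depth is unknown and a count test could not be used. The design text speaks of a microarray and the protocol of tissue, whereas the other labels describe sequenced cultured cells.

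Genes with a mean of at least 1 TPM entered limma 3.58.1 (R 4.3.3), with an intensity trend and no replicate block, on the log2(TPM + 1) scale. All tests were two-sided and adjusted over all 13406 genes by the Benjamini-Hochberg method. The fit was also run on simulated data, with noise drawn independently for each gene and library. Such data lack differences shared by the genes of a library, so they do not test the fit against those. Coordinates and 3' UTR came from GENCODE M21, and pandas 2.3.3 and numpy 2.4.6 under python 3.11.15 made the tables. The members and lists were chosen with earlier results of these data known. Named were the members, up to 3 tested genes per list with the smallest p, called genes, genes behind counts of 5 or fewer, and the 3 nearest profiles to Vegfa and Angptl4. Levels of untested receptors and ligands are given as description.

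Alternatives were a pseudocount of 0.1, no filter, a mean of at least 5 TPM, trimmed-mean scaling (30% of M, 5% of A), quantile normalization, no mitochondrial transcripts, no intensity trend, a replicate block and leaving out each library.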

Additional observations from a re-analysis of the deposited data

How the results depend on the processing

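The 10 genes and Plxnd1 kept their direction and their side of the threshold in 141 of 154 results over 14 alternatives. This count is no measure of robustness. With no filter, a mean of at least 5 TPM, no intensity trend or the replicate block the log2 fold changes are the same by construction, so no direction could turn. The 10 genes were also uncalled from the start. The direction turned for Nrp1 without LV2 replicate 1 (0.02) and without in9 replicate 1 (0.10), and for Pdgfb without LV2 replicate 2 (0.0044). Their log2 fold changes ranged from -0.13 to 0.10 for Nrp1 and from -0.0802 to 0.0044 for Pdgfb when each library was left out. Vegfc passed the threshold only without in9 replicate 1, and the count of the 10 genes called lower was 0 to 1 and called higher 0 to 0 when each library was left out. The call of Plxnd1 was lost in 9 alternatives. The count of pathway genes called higher, 1 with all libraries, was 0 with no filter, with a mean of at least 5 TPM, with no intensity trend and with the replicate block, and 0 to 14 when each library was left out. The count called lower, 0 with all libraries, was 1 (Nras) with either trimmed-mean scaling or quantile normalization, and 0 to 3 when each library was left out. Over all genes, 110 were called higher and 26 lower. These counts were 24 and 6 with no filter, 27 and 4 with no intensity trend, and 6 to 971 higher and 1 to 509 lower when each library was left out, the most without in9 replicate 1. With a mean of at least 5 TPM 45 were lower. After trimmed-mean scaling 86 were higher and 35 lower. With the replicate block 1 gene was higher and 1 lower. The labels' numbers gave no sign of pairing. Deviations of same-numbered libraries from their group means correlated over genes at -0.0969, 0.0223 and -0.0461. Of the 6 libraries only LV2 replicate 2 correlated best with its own number. Such values cannot show that the libraries were unpaired, because the deviations sum to 0 within a group. The cause of the changes between alternatives was not tested.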
